A study of Mus musculus with 22 samples.

Results

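The response of wild-type mouse embryonic stem (ES) cells to GSK-3484862 was measured by RNA sequencing in 4 of the 22 libraries of the series, chosen by their titles. The 2 libraries titled WT-GSK came from cells given GSK-3484862 for 3 days, and the 2 titled WT-DMSO from cells given the solvent DMSO for 3 days. The dose of GSK-3484862 is uncertain, since the protocol for treatment states 1 uM but the series' design states 2 uM. The labels name these cells WT, with no edited allele, and describe serum medium with LIF. They do not say whether replicates were separate cultures, so p-values measure the spread between these libraries, which may be technical. A further 8 libraries, titled Dux-N22 and Dux-KO22 (2 with GSK-3484862 and 2 with DMSO for each), entered the same fit, where they share the filter on low counts and the estimate of spread, and gave a repeat of the response and a test of its difference from WT. Both carry edits at Dux and are read here as 1 clone each. From the titles, KO22 is read as a Dux knockout and N22 as a line left with 1 Dux copy (Duxnto1). The 3 untreated E14 libraries entered no test.

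DNMT1 is the maintenance methyltransferase that copies CpG methylation onto the newly made DNA strand after replication. GSK-3484862 is a selective DNMT1 inhibitor under which the DNMT1 protein is also degraded, so that dividing cells dilute their methylation. Promoters known to depend on CpG methylation for silence include germline genes, X-linked testis and placenta genes and the silent copies of imprinted genes. No methylation was measured in these libraries, so every value here is an RNA level. Dnmt1 mRNA, which does not report the protein, had 498 and 490 CPM (counts scaled to the library total) with GSK-3484862, against 582 and 599 CPM with DMSO. Its log2 change was -0.32 ± 0.03 (SE; edgeR adjusted p = 7.69e-14). CPM take no account of gene length, so levels of different genes are not compared here.

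Depth was 18185943 and 18422898 counts with GSK-3484862 and 19062507 and 19427794 with DMSO. Genes with at least 1 count numbered 22625 and 22621 with GSK-3484862, against 21294 and 21383 with DMSO, although the DMSO libraries were the deeper ones. Mitochondrial genes held 2.95% and 2.77% of counts with GSK-3484862, against 1.78% and 1.66% with DMSO. They held 2.99%, 2.75% and 2.87% in untreated E14 and 2.17% to 2.39% in the N22 and KO22 DMSO libraries. The WT DMSO shares were thus the lowest of all libraries read. The 8 ES cell markers, Pou5f1, Sox2 and Nanog among them, summed to 4330 and 4330 CPM, against 5400 and 5500 CPM. Of 10 feeder fibroblast markers, Postn, Twist2 and Fap had no count, and the sum was 25.6 and 31.0 CPM, against 32.3 and 35.3 CPM. The 8 primitive endoderm markers summed to 177 and 194 CPM with GSK-3484862, against 121 and 119 CPM with DMSO, and 7 trophoblast markers to 22.5 and 24.3 CPM, against 19.6 and 17.6 CPM. In bulk RNA, more cells of a type and more RNA per cell cannot be told apart.

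The response had 2 layers. Of 29466 genes below 0.2 CPM in both DMSO libraries, 86 reached at least 1 CPM in both GSK-3484862 libraries, and these are called switched on. The mirrored rule found 4 switched off genes among 28579 that were below 0.2 CPM in both GSK-3484862 libraries. At a lower bar of 0.5 CPM the counts were 251 switched on and 44 switched off. Separately, 7992 of the 13158 genes with at least 1 CPM in both DMSO libraries, called expressed, passed the edgeR test at an adjusted p below 0.05 (60.7%), and the median size of their log2 change was 0.47. The background over all 16641 genes tested was 56.8% called, 28.7% called higher and 28.1% called lower, so a call alone marked more genes than not.

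**Figure D1:**
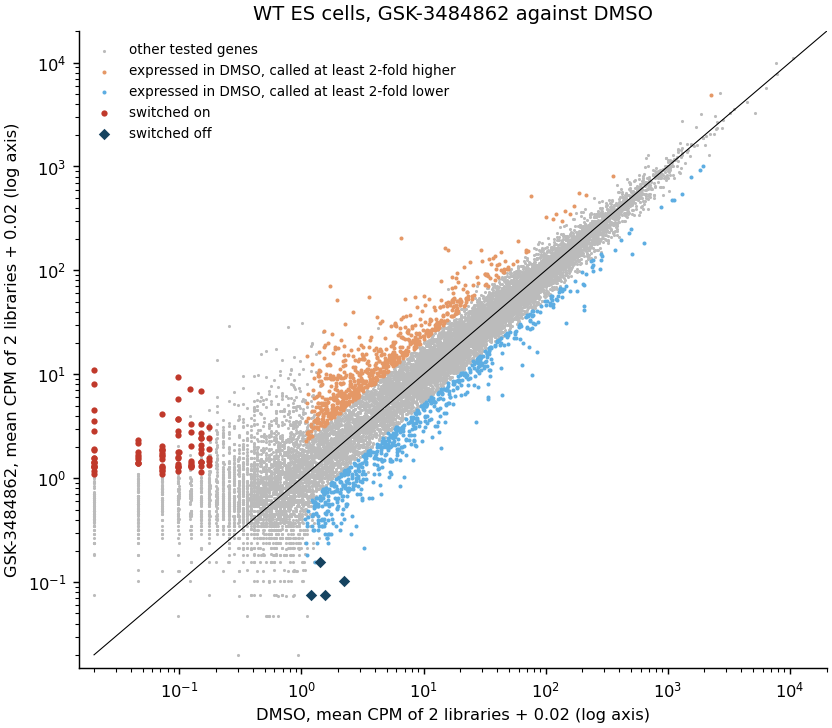
Mean CPM of the 2 GSK-3484862 libraries (vertical) against that of the 2 DMSO libraries (horizontal), with 0.02 added and both axes logarithmic. Points are tested genes and the line marks equal levels. The 86 switched on genes stand above the line at the left edge, and the 4 switched off genes lie below it.

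The switched on genes were lowly expressed even after treatment. Their median level with GSK-3484862 was 1.58 CPM and the highest 11.1 CPM, and 5 genes reached 5 CPM in both libraries. Together they held 197 and 193 CPM with GSK-3484862, against 5.61 and 6.07 CPM with DMSO. With DMSO, 18 had no count, 39 had 1 to 3 counts and 29 had 4 to 6 counts over both libraries. In the GSK-3484862 libraries no switched on gene had fewer than 19 counts. Protein-coding genes made up 68 of the 86, and 63 had a symbol that is no unnamed model. These WT values chose the genes, so they are given as a description.

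Dcdc2a, a doublecortin-domain gene known for hearing and cilia, had the most CPM of the switched on genes. It had 10.7 and 11.5 CPM with GSK-3484862 (194 and 212 counts) and no count with DMSO, which is at least 142-fold higher against a floor of 3 counts over the group. Cd200, a surface glycoprotein that restrains myeloid cells through its receptor, had 6.05 and 7.82 CPM with GSK-3484862, against 0.157 and 0.103 CPM with DMSO. Cox7b2, a testis-expressed relative of a cytochrome c oxidase subunit, had 5.44 and 6.13 CPM, against 0.105 and 0.0515 CPM. The DMSO libraries were near 0 for each of these genes, as the rule requires.

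Peg13, an imprinted noncoding RNA transcribed from the paternal copy inside Trappc9, had 7.42 and 7.06 CPM with GSK-3484862, against 0.0525 and 0.154 CPM with DMSO. Its ratio was 69.7 (95% counting interval 26.9 to 258). Trappc9 itself fell by 0.60 on the log2 scale in the test over all genes, and without strand the reads of the 2 genes cannot be told apart where they overlap. Nap1l5, a second imprinted gene expressed from the paternal copy, had 1.37 and 1.14 CPM with GSK-3484862, against 0.105 and 0 CPM with DMSO.

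**Figure D2:**
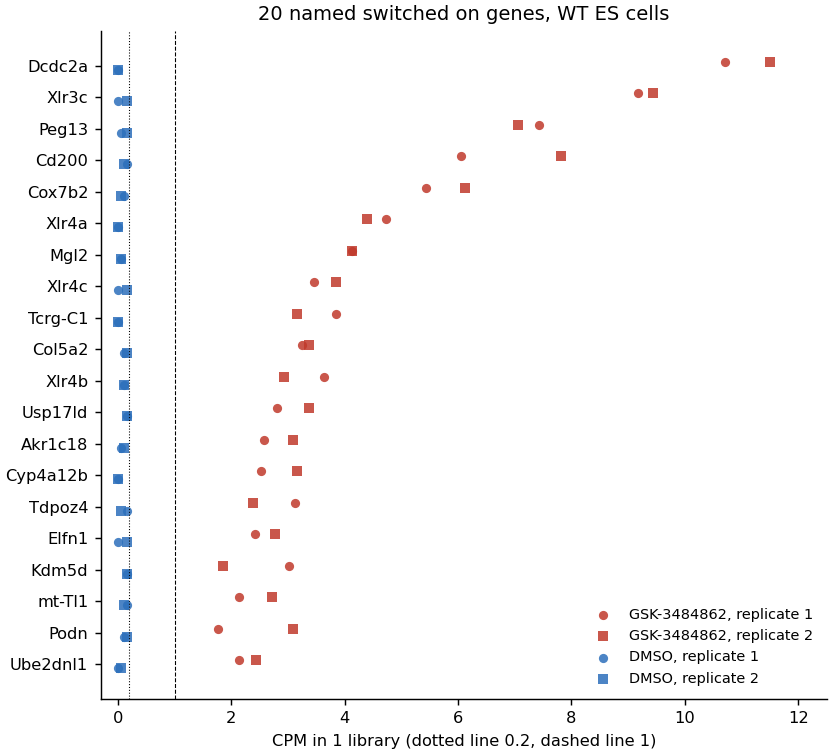
CPM in each library for the 20 named switched on genes with the highest mean in GSK-3484862, which is drawn above DMSO in each row. Every DMSO value lies left of the dotted line at 0.2 CPM, and every GSK-3484862 value right of the dashed line at 1 CPM.

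Several X-linked genes of testis and placenta were among the switched on genes. The X chromosome carried 16 of the 86 (18.6%), against 6.68% of the 29466 genes below 0.2 CPM in both DMSO libraries and 9.96% of those 472 that passed the filter on low counts. The share moved with the limit, to 32.4% at 0.1 CPM and 9.67% at 0.5 CPM. Xlr genes, a multi-copy X-linked family expressed in lymphoid and germ cells, supplied 5 of them. Xlr3c had 9.18 and 9.44 CPM with GSK-3484862, against 0 and 0.154 CPM with DMSO, a ratio of 120 (95% counting interval 40.5 to 582). Xlr4a had 4.73 and 4.40 CPM with GSK-3484862 and no count with DMSO, at least 58.5-fold higher. Xlr4b, Xlr4c and Xlr5c had mean levels of 3.28, 3.66 and 2.18 CPM with GSK-3484862.

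Rhox2a, of the X-linked reproductive homeobox cluster, had 29 and 27 counts with GSK-3484862 and none with DMSO, at least 19.6-fold higher. Magea8, of the melanoma antigen family, had 30 and 20 counts and none with DMSO, at least 17.5-fold higher. Fthl17d and Fthl17f, ferritin-like genes, and Nxf2, an mRNA export factor of germ cells, were the other switched on members of this list, which makes 10 of its 56 measured members. Kdm5d, a Y-linked histone demethylase, had 3.02 and 1.85 CPM with GSK-3484862, against 0.157 and 0.154 CPM with DMSO. Reads shared between near-identical Xlr, Rhox, Magea and Fthl17 copies were not counted, so the level of a single copy is uncertain.

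Genes of germ cells on other chromosomes were also switched on. Asz1, which tethers the piRNA machinery to mitochondria in male germ cells, had 1.32 and 1.68 CPM with GSK-3484862, against 0 and 0.0515 CPM with DMSO, a ratio of 57.8 (95% counting interval 9.95 to 2330). Tex12, a component of the synaptonemal complex, had 1.21 and 1.03 CPM, against 0.157 and 0.103 CPM. Of genes that mark the 2-cell embryo, Usp17ld, Tdpoz4, AF067061 and Trim43a were switched on. Usp17ld, a deubiquitinase gene of a multi-copy family, had 2.80 and 3.37 CPM, against 0.157 and 0.154 CPM. Most 2-cell genes already had some reads with DMSO and so did not meet the rule.

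Genes known from differentiated tissues were switched on as well. Mgl2, a macrophage lectin, had 4.12 and 4.13 CPM with GSK-3484862, against 0.0525 and 0.0515 CPM with DMSO. Tcrg-C1, a constant segment of the T cell receptor gamma locus, had 3.85 and 3.15 CPM and no count with DMSO, at least 44.9-fold higher. Col5a2, a fibrillar collagen chain, had 3.24 and 3.37 CPM, against 0.105 and 0.154 CPM. Cyp4a12b, a fatty acid hydroxylase of mouse kidney and liver, had 2.53 and 3.15 CPM and no count with DMSO, at least 36.4-fold higher.

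Akr1c18, which inactivates progesterone, had 2.58 and 3.09 CPM with GSK-3484862, against 0.0525 and 0.103 CPM with DMSO. Ptgs2, the inducible cyclooxygenase, had 2.03 and 2.01 CPM, against 0 and 0.103 CPM. Flg, the epidermal barrier protein filaggrin, had 24 and 23 counts with GSK-3484862 and none with DMSO, at least 16.5-fold higher. Homeobox and zinc finger regulators of the embryo were present too. En1, a midbrain and limb homeobox gene, had 42 and 26 counts with GSK-3484862 and none with DMSO, and Gsx1, Evx1 and Sp9 reached mean levels of 2.03, 1.56 and 1.72 CPM. Of the 86 genes, 63 were in none of the 63 gene lists used here.

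The limit of 0.2 CPM divides a continuous range. Gsx1, mt-Tl1 and Dlk2 were the named genes just inside it, each with 0.157 CPM in its higher DMSO library. Gcm1, Tdpoz3 and Dnah7a were just outside, each with 0.206 CPM in that library and 1.03 to 3.30 CPM in the GSK-3484862 libraries. Of the 86, 40 stayed below 0.2 CPM in every untreated E14 library. The choice by a low WT DMSO level favours higher values elsewhere. Some genes passed the limit in 1 E14 library only, as Usp17ld did (0, 0.452 and 0.0547 CPM), and others were well above it in each. Evx1 had 2.78, 5.03 and 4.15 CPM in E14, and Aox3 had 2.1, 1.13 and 1.42 CPM. The mitochondrial gene mt-Tl1 had 2.27, 1.92 and 3.17 CPM in E14 and 1.45 to 2.13 CPM in the N22 and KO22 DMSO libraries.

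The N22 and KO22 libraries gave a repeat that the rule had not used. In N22, 84 of the 86 genes were called higher with GSK-3484862 than with DMSO and none lower, where 26.9% of all genes tested were called higher and 26% lower. In KO22, 65 were called higher and none lower, where 24.8% of all genes were called higher and 21.2% lower, and 64 were higher in both. A gene near 0 in its own DMSO libraries can hardly be called lower, so the shares over all genes are no like background. Of the 472 tested genes below 0.2 CPM in both WT DMSO libraries, 86.4% were called higher in WT and none lower. Such genes can pass the filter on low counts through treated libraries, which favours rises. Their shares in N22 and KO22 were not counted, so the 84 and 65 of 86 have no like background here. Dcdc2a had 11.8 and 11.7 CPM with GSK-3484862, against 0.218 and 0.106 CPM with DMSO, in N22. In KO22 it had 7.85 and 6.77 CPM, against 0.0556 and 0 CPM. Xlr4a had no count in either genotype's DMSO libraries and 3.16, 3.00, 2.92 and 2.68 CPM in their 4 GSK-3484862 libraries.

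The same limits were not always met there. Of the 86 genes, 53 were below 0.2 CPM in both N22 DMSO libraries, and 52 were in both KO22 DMSO libraries. Applying the rule within each genotype gave 99 genes in N22, of which 31 were also switched on in WT, and 60 in KO22, of which 23 were. Those 31 are 31.3% of the N22 genes and 36.0% of the WT genes, and those 23 are 38.3% of the KO22 genes and 26.7% of the WT genes. The 2-cell genes Usp17ld and Tdpoz4 had no count in either KO22 GSK-3484862 library. In N22, Usp17ld had 1.07 and 1.09 CPM with GSK-3484862, against 0.0546 and 0 CPM with DMSO.

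The switched off genes included Cxcl12, Mir1968 and the unnamed model Gm12522. Cxcl12, the chemokine ligand of CXCR4, had 0.0550 and 0.0543 CPM with GSK-3484862, against 1.84 and 1.24 CPM with DMSO. Mir1968, a microRNA gene, had 0.0550 and 0.0543 CPM, against 1.05 and 1.29 CPM. Both genes were low even with DMSO. Cxcl12 was already below the limit in KO22 with DMSO (0.0556 and 0.155 CPM), so KO22 gave no repeat for it.

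Some switched on genes were neighbours. With start sites at most 100 kb apart, 14 of the 86 fell into 6 runs. The longest held Xlr4b, Xlr4c, Xlr3c and Xlr5c at chrX:73214333-73292976 (GRCm38), inside a run of 10 genes called at least 4-fold higher that starts with Pnma5. A run at chr1:65012689-65051149 held Akr1cl, an aldo-keto reductase relative, and the lens crystallin gene Cryge, beside Crygd and Crygc among genes called at least 4-fold higher. Over all genes called at least 4-fold higher (5.8% of those tested), 252 of 966 lay in 100 such runs. Of the 175 called at least 4-fold lower (1.05%), 18 lay in 9 runs. A larger set falls into runs more often whatever its genes, and sets of equal size were not drawn. Whether rises lay closer together than falls was therefore not tested. The 14 of 86 have no background either. The run of Dlk1, Meg3, Rtl1 and Rian at chr12:109452823-109661716 is an imprinted cluster.

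Promoter sequence is shown because methylation sits on CpG, and the CpG content of the switched on genes varied widely. RefSeq promoters (250 bases before to 50 after the start, GRCm38.p6) were matched for 61 of the 86. These 6 show the range of CpG content among them, with every CpG in capitals, 5′ to 3′ on the strand of the gene. Dcdc2a and the germline genes Asz1 and Tex12 are CpG-rich, Cd200 and Xlr4b intermediate, and Akr1cl has no CpG.
Dcdc2a (chr13:25055754-25056053, plus strand): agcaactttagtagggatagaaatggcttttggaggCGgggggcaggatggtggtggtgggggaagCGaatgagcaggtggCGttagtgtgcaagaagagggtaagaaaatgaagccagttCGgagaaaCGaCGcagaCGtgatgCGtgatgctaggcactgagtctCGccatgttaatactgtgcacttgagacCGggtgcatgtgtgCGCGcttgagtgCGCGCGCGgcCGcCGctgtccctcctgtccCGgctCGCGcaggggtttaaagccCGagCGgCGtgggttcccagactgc
Asz1 (chr6:18109012-18109311, minus strand): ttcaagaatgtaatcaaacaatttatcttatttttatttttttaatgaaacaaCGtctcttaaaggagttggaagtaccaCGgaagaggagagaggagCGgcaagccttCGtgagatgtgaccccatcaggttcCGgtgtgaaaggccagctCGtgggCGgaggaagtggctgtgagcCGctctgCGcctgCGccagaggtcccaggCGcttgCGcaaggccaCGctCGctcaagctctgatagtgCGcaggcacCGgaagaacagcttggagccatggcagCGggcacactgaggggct
Tex12 (chr9:50561219-50561518, minus strand): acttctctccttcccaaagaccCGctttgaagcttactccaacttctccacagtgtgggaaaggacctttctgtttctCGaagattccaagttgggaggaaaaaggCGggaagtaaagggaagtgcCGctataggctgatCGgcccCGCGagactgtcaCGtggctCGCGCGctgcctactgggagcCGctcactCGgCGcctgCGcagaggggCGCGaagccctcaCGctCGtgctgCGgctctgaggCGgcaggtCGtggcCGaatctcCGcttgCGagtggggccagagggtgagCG
Cd200 (chr16:45409004-45409303, minus strand): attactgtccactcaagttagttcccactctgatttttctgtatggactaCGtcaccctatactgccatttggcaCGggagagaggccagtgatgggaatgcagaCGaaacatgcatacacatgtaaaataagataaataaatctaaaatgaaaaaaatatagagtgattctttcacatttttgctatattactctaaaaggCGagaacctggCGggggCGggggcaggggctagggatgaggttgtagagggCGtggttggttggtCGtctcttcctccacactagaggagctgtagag
Xlr4b (chrX:73214083-73214382, plus strand): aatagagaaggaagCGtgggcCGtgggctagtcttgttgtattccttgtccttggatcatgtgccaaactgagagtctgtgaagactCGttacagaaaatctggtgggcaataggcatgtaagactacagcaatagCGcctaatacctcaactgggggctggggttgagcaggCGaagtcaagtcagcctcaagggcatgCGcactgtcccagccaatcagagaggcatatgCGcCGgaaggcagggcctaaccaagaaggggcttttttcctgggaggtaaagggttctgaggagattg
Akr1cl (chr1:65032710-65033009, minus strand): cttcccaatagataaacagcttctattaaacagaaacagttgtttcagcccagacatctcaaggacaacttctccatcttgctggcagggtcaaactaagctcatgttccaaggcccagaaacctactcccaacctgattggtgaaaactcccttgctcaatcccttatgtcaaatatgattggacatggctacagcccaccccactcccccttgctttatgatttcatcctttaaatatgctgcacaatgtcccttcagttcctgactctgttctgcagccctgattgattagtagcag

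Dcdc2a had 24 CpG in these 300 bases, Asz1 17, Tex12 26, Cd200 and Xlr4b 8 each and Akr1cl 0. Over the 61 matched switched on genes the median was 8 CpG (quartiles 3 and 13), and 39.3% had 10 or more. Expressed genes called with less than a 2-fold change had a median of 22 CpG, with 88.6% at 10 or more. Expressed genes called at least 2-fold higher or lower both had a median of 17. Protein-coding genes near 0 in both conditions had a median of 2, with 10.2% at 10 or more, and the median over all 19377 matched genes was 12. Genes that were neither expressed in DMSO nor switched on, and were called at least 2-fold higher, also had a median of 8 (725 matched), with 45.4% at 10 or more. The switched on genes thus had the same median as other low genes that rose, between those of the silent and the expressed genes. The letters CACGTG (E-box, read the same on both strands) occurred once in the Tex12 window and in 7.79% of all windows, and TTCCCGC or its reverse complement (E2F6) once in the Tex12 window as well.

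**Figure D3:**
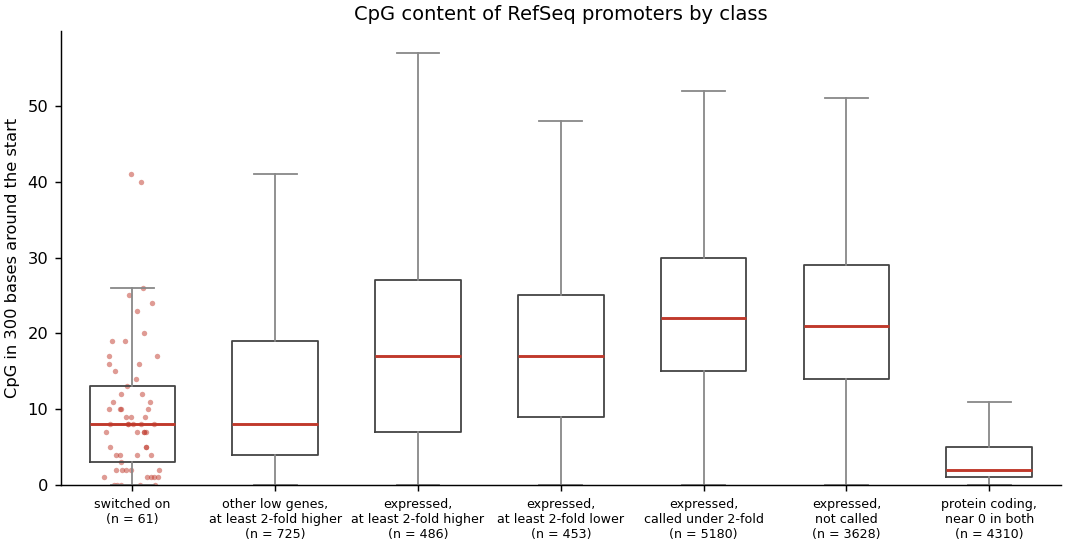
Number of CpG in the 300 bases of the RefSeq promoter (vertical), by class of response. Boxes span the quartiles with the median in red, whiskers reach at most 1.5 times the box, and points are the 61 switched on genes. Switched on genes have a median of 8, expressed genes called with less than a 2-fold change 22, and silent protein-coding genes 2.

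Between silence and expression, most calls among genes with little RNA in DMSO were upward. Of 2670 tested genes with a mean of 0.2 to 1 CPM in DMSO, 30.1% were called at least 2-fold higher and 4.83% at least 2-fold lower, and 1728 were not called. From 1 to 10 CPM the shares were 13.6% and 9.60%. From 10 to 100 CPM they were 2.31% and 3.15%. At 100 CPM and over, 0.422% were called at least 2-fold higher and 2.19% at least 2-fold lower. In that top tier 21.2% of genes were called higher and 53.3% lower by any size. Tiers set by the DMSO level favour rises at the low end and falls at the top. The filter on low counts also favours rises at the low end, since a gene low in DMSO can pass through treated libraries. Of the 4764 genes from 0.2 to 1 CPM, 2670 passed it. With tiers from the untreated E14 libraries, which are in no contrast, 0.2 to 1 CPM gave 25.1% at least 2-fold higher and 9.70% at least 2-fold lower. The same filter applied there, so its part in the excess of rises remains. At 100 CPM and over, the E14 tiers gave 27.2% called higher and 45.2% lower by any size.

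**Figure D4:**
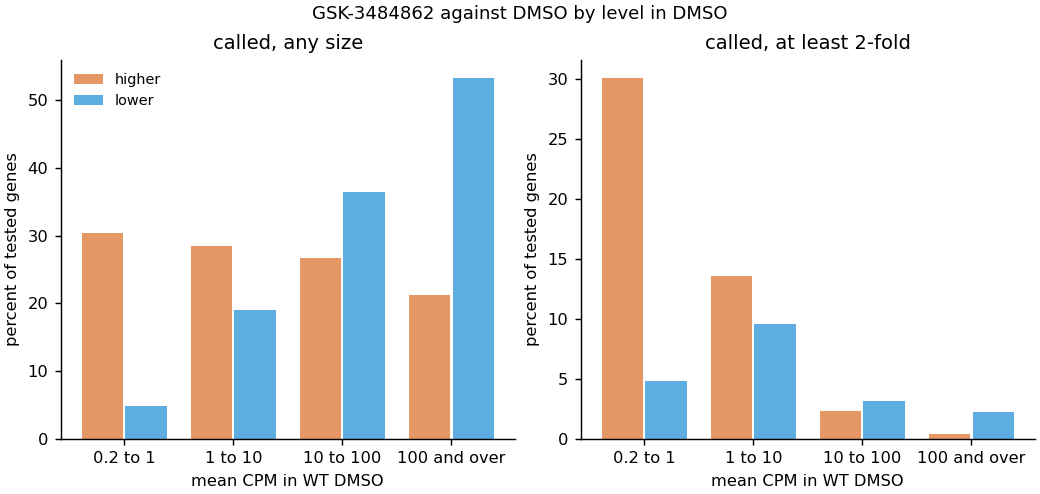
Percent of tested genes called higher or lower with GSK-3484862 than with DMSO (vertical), at any size (left) and by at least 2-fold (right), in tiers of the mean CPM in WT DMSO (horizontal). Calls of at least 2-fold higher make up 30.1% of the tier from 0.2 to 1 CPM and 0.422% of the tier at 100 CPM and over.

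Over the expressed genes, 3479 were called higher (26.4%) and 4513 lower (34.3%). This order turned round when counts were scaled to library totals only, with 4117 higher and 3834 lower, and in a test of at least a 1.5-fold change, with 896 higher and 870 lower. At least 2-fold changes were even, with 711 higher (5.40%) and 650 lower (4.94%), and 125 were called at least 4-fold higher (0.95%) and 84 at least 4-fold lower (0.638%). Over all genes tested, 1982 were called at least 2-fold higher (11.9%) and 817 at least 2-fold lower (4.91%). Of those 1982 rises, 711 were in expressed genes.

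Imprinted genes included H19 and Mest, with the highest fitted log2 changes among genes of at least 1 CPM in both DMSO libraries. H19, the maternally expressed noncoding RNA next to Igf2, had 69.2 and 73.1 CPM with GSK-3484862, against 1.78 and 1.6 CPM with DMSO, a log2 change of 5.33 ± 0.13 (edgeR adjusted p = 1.7e-44). Mest, a paternally expressed hydrolase gene, had 205 and 200 CPM, against 5.93 and 7.15 CPM (4.89 ± 0.07, edgeR adjusted p = 2.5e-59). The treated libraries were far above the DMSO libraries in both cases.

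Of the 28 tested paternally expressed genes, 22 were called higher, 2 lower and 4 not called, and the median log2 change was 1.06, where the median over all genes was 0.00. Plagl1, a zinc finger regulator of growth that was below 1 CPM in a DMSO library, rose by 4.92 ± 0.19 and Peg10, a retroviral gag-derived placental gene, by 1.12 ± 0.03. Igf2, the growth factor beside H19, rose by 1.90, Magel2 by 3.90 and Nnat by 2.37. The maternally expressed genes were divided, with 6 of 22 tested called higher, 7 lower and 9 not called (median -0.03). Meg3, Rian and Mirg, noncoding RNAs of the Dlk1 cluster, rose by 3.38 ± 0.07, 3.26 ± 0.07 and 3.96 ± 0.19. Dlk1 and Rtl1, which are read from the paternal copy of that cluster, rose by 3.53 ± 0.17 and 4.23. Grb10, a growth factor receptor adaptor, fell by 1.14 ± 0.03, and Phlda2 and Slc22a18 fell by 1.38 and 1.23.

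Germline genes rose in part. Fkbp6, a co-chaperone of piRNA loading, had 51.1 and 52.3 CPM with GSK-3484862, against 2.05 and 1.80 CPM with DMSO, a log2 change of 4.68 ± 0.12 (edgeR adjusted p = 5.13e-43). Of 22 tested piRNA pathway genes 12 were called higher, 3 lower and 7 not called, with a median of 0.46. Stk31 rose by 2.38 ± 0.11, Henmt1, the piRNA methyltransferase, by 1.97 and Gpat2 by 1.48 ± 0.10. Mael, Tdrd1 and Pld6 fell by 0.42, 0.77 and 0.77. The germ cell identity list had 20 of 31 tested members higher and 5 lower (median 0.93), with 9 more below the filter on low counts.

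Dazl, an RNA-binding regulator of germ cell fate, rose by 3.04, Taf7l by 2.36, and Hormad1, a meiotic chromosome axis protein, by 2.51 ± 0.14. Tex19.1, which protects germ cells against retrotransposons, had 186 and 194 CPM with GSK-3484862, against 57.7 and 60.0 CPM with DMSO. Kit and Stra8 fell by 1.08 ± 0.05 and 1.71 ± 0.11. Meiosis genes showed no common direction, with 8 of 28 higher, 8 lower and 12 not called (median 0.08). Rec114, of the recombination machinery, rose by 1.71 ± 0.17, and Sycp3, Meiob and Aurkc fell by 2.20, 2.35 and 1.82. Sperm structure genes were mostly unmeasured, and of 11 tested 1 was called higher and 5 lower.

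The wider X-linked testis and placenta list summed to 208 and 205 CPM with GSK-3484862, against 61.5 and 55.2 CPM with DMSO, over all 56 measured members. Of the 33 that passed the filter, some through their treated libraries alone, 31 were called higher and none lower. Rhox5, the placental and Sertoli cell homeobox gene, had 62.7 and 61.6 CPM, against 23.8 and 21.7 CPM, and rose by 1.39 ± 0.08. Usp26, a testis deubiquitinase, rose by 2.70 ± 0.16 and Nxf3 by 4.85 ± 0.30. The median log2 change was 3.89 as fitted and 3.35 with the 8 genes without DMSO counts set at their lower bounds.

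The 2-cell embryo list summed to 504 and 475 CPM with GSK-3484862, against 230 and 219 CPM with DMSO, over 43 measured members. Zscan4d, which marks the rare 2-cell-like state of ES cells, had 21.6 and 21.7 CPM, against 1.68 and 2.47 CPM, a log2 change of 3.31 ± 0.22. Of the 35 that passed the filter, some through their treated libraries alone, 34 were called higher and 1, Trim43c, was not. Duxf3, the annotated Dux gene, had 1.04 and 0.977 CPM, against 0.0525 and 0.0515 CPM. In KO22, 6 of the 35 were called higher and 1 lower, and in N22 32 higher and none lower. Clustered protocadherins, cell adhesion genes with alternative promoters and shared exons, had 56 measured members, of which 36 did not pass the filter on low counts and 7 were expressed in DMSO. Of the 20 tested, some of which passed through their treated libraries, 15 were called higher and none lower (median 1.27).

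**Figure D5:**
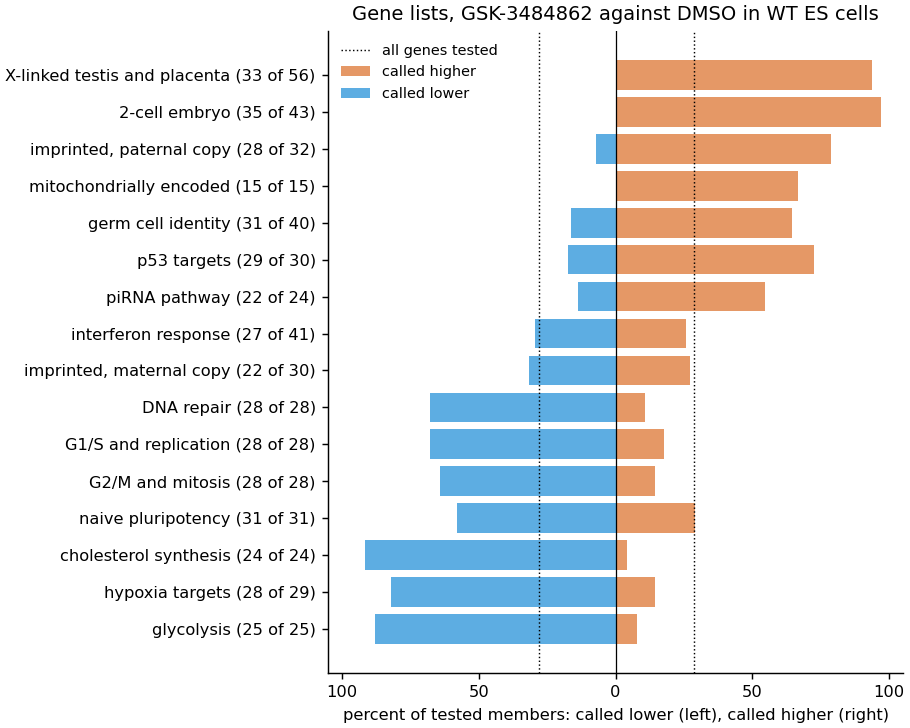
Percent of tested members called higher (right) and lower (left) with GSK-3484862 than with DMSO, for 16 gene lists ordered by median log2 change. Numbers beside each name are tested and measured members, and dotted lines mark all genes tested (28.7% higher, 28.1% lower). Glycolysis, hypoxia and cholesterol lists extend to the left, and X-linked, 2-cell and paternally imprinted lists to the right.

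Genes of central metabolism were lower with GSK-3484862. Glycolysis genes summed to 11200 and 10900 CPM with GSK-3484862, against 19100 and 19400 CPM with DMSO. Of 25 members 22 were called lower, 2 higher and 1 not called, and 13 fell by at least 2-fold (median -1.0). Tpi1, triose phosphate isomerase, had 181 and 183 CPM, against 640 and 647 CPM (-1.89 ± 0.04, edgeR adjusted p = 1.8e-49). Falls reached from glucose entry to lactate: the transporters Slc2a1 and Slc2a3 fell by 1.17 and 1.28, Pgk1 by 1.32, Pkm by 0.70 and Ldha by 1.02, each with an SE of 0.03. Aldoc, the brain aldolase isoform, had 5.77 and 6.79 CPM, against 44.7 and 43.3 CPM. Eno3, the muscle enolase, and Pfkfb4 went the other way, by 1.23 and 0.78. Gapdh, whose reads are shared with near-identical pseudogenes, was not called. In N22 22 and in KO22 19 of the 25 were called lower with GSK-3484862, with medians of -0.88 and -0.44.

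Genes that respond to low oxygen fell with them, and Slc2a1 and Pdk1 are in both lists. Of 28 tested hypoxia targets 23 were called lower, 4 higher and 1 not called (median -0.98). Bnip3, a mitophagy receptor, had 31.8 and 31.3 CPM with GSK-3484862, against 145 and 148 CPM with DMSO (-2.28 ± 0.06, edgeR adjusted p = 2.05e-42). Bhlhe40, a transcriptional repressor, had 9.73 and 10.0 CPM, against 73.0 and 80.2 CPM (-3.02 ± 0.09). Egln3, an oxygen-sensing prolyl hydroxylase, fell by 2.46 ± 0.09, and Ndufa4l2, a mitochondrial subunit relative, by 3.02 ± 0.17. Vegfa and Car9 fell by 1.18 and 1.46, and Kdm3a, Cited2, Plod2 and Fam162a rose by 0.25, 0.58, 0.58 and 0.19. In N22 21 and in KO22 13 of the 28 were called lower, with medians of -0.99 and -0.21, and the differences between genotypes were not tested for any list.

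Sterol synthesis was lower as well. Of 24 cholesterol genes 22 were called lower, 1 higher and 1 not called (Ebp), with a median of -0.76. Insig1, which holds the sterol sensor in the endoplasmic reticulum, had 62.2 and 64.6 CPM with GSK-3484862, against 183 and 181 CPM with DMSO (-1.58 ± 0.05). Lss, lanosterol synthase, fell by 1.12 and Dhcr7, which makes cholesterol from its last precursor, by 1.20. Scd1 and Scd2, stearoyl-CoA desaturases, fell by 2.24 ± 0.05 and 1.25 ± 0.03. Over the fatty acid list, 12 of 21 tested members were called lower and 7 higher. Cholesterol genes were called lower for 22 of 24 in N22 and 20 of 24 in KO22.

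Mitochondrially encoded RNAs were higher than in WT DMSO. Nuclear genes of oxidative phosphorylation were slightly lower, as were many genes at 100 CPM and over. The 15 mitochondrial transcripts summed to 29500 and 27700 CPM, against 17800 and 16500 CPM, and 10 were called higher, none lower and 5 not called (median 0.97). Nd1 of the mitochondrial genome (mt-Nd1) had 5100 and 4570 CPM, against 2310 and 2250 CPM, and the ribosomal RNA mt-Rnr2 rose by 2.72 ± 0.11. Of 37 nuclear members 24 were called lower (64.9%), 2 higher and 11 not called, with a median of -0.15. Of all genes at 100 CPM and over in DMSO, 53.3% were called lower, with a median of -0.12. With tiers from untreated E14 this was 45.2%, with a median of -0.07. Atp5a1 and Sdhb fell by 0.34 and 0.65. In N22 8 and in KO22 4 of the 15 were called higher, with medians of 0.54 and 0.28. Untreated E14 libraries had mitochondrial shares of 2.75% to 2.99%, near those of WT with GSK-3484862, and the WT DMSO shares were the lowest of all libraries read.

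Targets of p53, the DNA damage and stress regulator, were mostly higher. Of 29 tested, 21 were called higher, 5 lower and 3 not called (median 0.59), and 11 rose by at least 2-fold. Plk2, a polo-like kinase, had 116 and 124 CPM with GSK-3484862, against 23.7 and 24.4 CPM with DMSO (2.25 ± 0.06, edgeR adjusted p = 1.15e-40). Mdm2, the ubiquitin ligase of p53, had 322 and 302 CPM, against 115 and 112 CPM (1.39 ± 0.04). Perp, Ccng1 and Cdkn1a, the cell cycle inhibitor p21, rose by 2.64, 1.64 and 1.13. Pmaip1 (Noxa), an apoptosis trigger, rose by 1.82 ± 0.08, and Xpc and Ddb2, which recognise damaged DNA, fell by 0.63 and 0.71. Of 22 tested apoptosis genes, 6 were called higher and 7 lower. Targets of p53 were called higher for 23 of 29 in N22 and for 23 of 29 in KO22.

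Proliferation genes shifted down by small amounts. Of 28 G1/S and replication genes 19 were called lower and 5 higher (median -0.23), of 28 G2/M genes 18 lower and 4 higher (median -0.24), and of 28 DNA repair genes 19 lower and 3 higher (median -0.20). These are 67.9%, 64.3% and 67.9% called lower, where 53.3% of all genes at 100 CPM and over in DMSO were (median -0.12). With tiers from untreated E14 the latter share was 45.2% (median -0.07). Rrm2, the ribonucleotide reductase subunit, had 293 and 300 CPM, against 436 and 437 CPM (-0.62 ± 0.03). Mcm6, Kif23 and Mdc1 fell by 0.58, 0.72 and 0.83. No member of the G2/M or repair lists changed by 2-fold. Heat shock genes were called higher for 12 of 16 and lower for 4 (median 0.27), with Hsph1 at 0.83 ± 0.04.

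Naive pluripotency genes were called lower for 18 of 31 (58.1%), higher for 9 and not called for 4 (median -0.28). Among all genes at 100 CPM and over in DMSO, a choice that favours falls, 53.3% were called lower (median -0.12). With tiers from untreated E14 this was 45.2% (median -0.07), and the list members were not matched to that level. Klf4 had 162 and 167 CPM with GSK-3484862, against 275 and 279 CPM with DMSO (-0.82 ± 0.04). Tfcp2l1 and Socs3, a feedback target of LIF signalling, fell by 0.81 and 0.91, Nanog by 0.28 and Pou5f1 by 0.09. Dppa3, which limits methylation maintenance in the oocyte and early embryo, had 14.7 and 13.1 CPM, against 3.72 and 2.73 CPM, and rose by 2.04 ± 0.17. Sall4 and Dppa2 rose by 0.40 and 0.67.

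Lineage lists differed. Primitive endoderm genes were called higher for 15 of 27 and lower for 5 (median 0.48), trophoblast genes for 10 and 2 of 20 (median 0.67), and formative genes for 8 and 5 of 18 (median 0.05). Genes of Nodal and TGF-beta signalling were called higher for 8 and lower for 11 of 25 (median -0.12). In the primitive endoderm list Sparc and Col4a1, basement membrane genes, rose by 0.77 ± 0.04 and 1.35 ± 0.08. Cdx2, the trophoblast and gut homeobox gene, had 0.660 and 1.30 CPM, against 0.0525 and 0.0515 CPM. Nodal, the TGF-beta family ligand, had 113 and 114 CPM, against 53.8 and 54.7 CPM (1.01 ± 0.05). Pou3f1, a marker of the primed state, rose by 1.12 ± 0.07 and Zic5 fell by 0.90 ± 0.10. Id1 and Id3, targets of BMP signalling, rose by 1.45 and 1.75, and Fgf4 fell by 0.79.

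Among the methylation genes themselves, Dnmt3l, the cofactor of de novo methylation, had 561 and 548 CPM with GSK-3484862, against 191 and 182 CPM with DMSO (1.51 ± 0.04, edgeR adjusted p = 9.3e-46). Tet1, a methylcytosine oxidase, fell by 0.55 ± 0.03. Over 27 tested members of this list 7 were called higher and 12 lower (median -0.14). Genes of KRAB and H3K9 silencing were even, with 9 of 23 higher and 9 lower, and Atf7ip rose by 0.82 ± 0.04.

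The interferon and RNA-sensing list had no common direction, with 7 of 27 tested called higher, 8 lower and 12 not called (median 0.00). Ddx58 (RIG-I), a sensor of viral RNA, rose by 1.58 ± 0.08 and Cgas, the DNA sensor, by 2.19 ± 0.20, and Stat2 fell by 1.27 ± 0.07. Cytosolic ribosomal protein genes changed little, with 25 of 43 not called, 16 lower and 2 higher (median -0.03).

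Other large rises of expressed genes came from outside these lists. Smtnl1, a smoothelin-like gene, had 26.3 and 26.1 CPM with GSK-3484862, against 1.36 and 1.65 CPM with DMSO (4.05 ± 0.16). Tnfrsf8 (CD30), a receptor of activated lymphocytes, rose by 3.87 ± 0.13, Nckap1l, a blood cell actin regulator, by 3.73 ± 0.15 and Cd80, a T cell costimulator, by 3.58 ± 0.18. The actin cytoskeleton list was even, with 7 of 22 tested called higher, 7 lower and 8 not called (median -0.03). In it Pfn1 and Actb rose by 0.79 and 0.41, and Actn1 and Cnn3 fell by 0.60 and 0.52. Fn1, fibronectin, had 909 and 933 CPM, against 1800 and 1850 CPM, and fell by 1.05 ± 0.03. The efflux pump gene Abcb1b had 55.2 and 51.6 CPM, against 10.9 and 11.1 CPM (2.22 ± 0.08). The libraries of the groups did not overlap for these genes, which was also so for 77.0% of all genes tested.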

How the data were processed

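RNA was sequenced from mouse ES cells, and the values analysed are the gene counts that the authors deposited. Reads were counted by gene as pairs, without strand and without reads of multiple positions, on GRCm38 and Ensembl 84, per the file headers of 15 of 15 tables read. Per the submitters' processing notes fastp 0.23.2, HISAT2 2.1.0, featureCounts 2.0.1 and DESeq2 1.40.2 were used. Of 47729 identifiers, 47224 matched a symbol. The dose is 1 uM in the treatment protocol and 2 uM in the design text. A further 7 untreated Dux-edited libraries are not used here.

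The 12 treated libraries (WT, N22 and KO22, 2 with GSK-3484862 and 2 with DMSO each) were fitted together in edgeR 4.0.16 (R 4.3.3; limma 3.58.1) with TMM scaling, a filter on low counts (minimum 10) and the robust quasi-likelihood test, Benjamini-Hochberg adjusted over 16641 genes. WT depth was 18185943 to 19427794 counts. Switched on means below 0.2 CPM in both DMSO and at least 1 CPM in both GSK-3484862 libraries. Ratios against 1 or more counts carry 95% intervals, and both these and lower bounds (floor of 3 counts over the group) cover counting error only. On simulated WT counts with 200 of 15562 genes changed, 185 were recovered and 12 unchanged genes were called. The changed genes all had at least 1 CPM in DMSO, and every gene was given the same spread. Far fewer genes were changed than were called in the real data. The simulation therefore checks the fitting step and gives no rate of false calls for the real data or for genes near 0.

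Libraries of the same replicate number shared no large deviation (r of deviations 0.024 in WT, -0.011 in N22, 0.02 in KO22). Counting noise enters these values, so they cannot show that the libraries were unpaired. Genes, gene lists and members were chosen with earlier results of these data known. The text names the 20 highest switched on genes, the switched off genes, the 15 largest changes of expressed genes in each direction by fold and by CPM, for each list its switched members and at most 5 others by smallest p, 3 genes on each side of the limit, and Dnmt1. Pou5f1, Sox2, Nanog, Trappc9, En1, Evx1, Sp9, Aox3, Gm12522, Pnma5, Akr1cl, Cryge, Crygd, Crygc, Rtl1, Igf2, Magel2, Nnat, Phlda2, Slc22a18, Henmt1, Mael, Tdrd1, Dazl, Taf7l, Meiob, Aurkc, Trim43c, Eno3, Pfkfb4, Gapdh, Pdk1, Vegfa, Car9, Kdm3a, Cited2, Plod2, Fam162a, Ebp, Cdkn1a, Xpc, Ddb2, Sall4 and Dppa2 fall outside this rule and were chosen after their values were seen. Alternatives were other scalings and filters, DESeq2 1.42.0, a 1.5-fold test, a replicate block, other limits and leaving out each library. A few genes counted in the lists are not reported here by name.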

Additional observations from a re-analysis of the deposited data

Results flagged for a closer look

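Among the 86 switched on genes, the response to GSK-3484862 differed between genotypes for the genes below, by the interaction term of the edgeR fit. Over all genes tested this term was called for 11.1% in N22 and 31.8% in KO22. In N22 it was called for 4 of the 86, each with a smaller fitted response than in WT: Dcdc2a (adjusted p = 0.0489), mt-Tl1 (0.00395), En1 (0.00383) and Aox3 (0.0275). In KO22 it was called for 14, again each smaller than in WT.

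Xlr3c (edgeR adjusted p = 2.26e-06) had 7.2 and 7.5 CPM with GSK-3484862 in KO22, against 0.890 and 1.03 CPM with DMSO. Evx1 (3.08e-05) had 3.63 and 4.46 CPM, against 2.61 and 2.84 CPM, and Xkrx (9.5e-05) 3.57 and 4.09 CPM, against 2.11 and 2.02 CPM, so that their DMSO libraries were not silent. Usp17ld (0.0132) had no count in the KO22 GSK-3484862 libraries. The others were mt-Tl1 (2.22e-05), Ube2dnl1 (0.0279), Fam124a (0.0326), En1 (0.000998), Cfap44 (0.0028), Gm38103 (0.00625), Zbbx (0.00124), Ces2e (0.00112), Aox3 (0.00518) and Gm14848 (0.00251). The genes were chosen for a low WT DMSO level, which favours a smaller response elsewhere, and the cause was not tested.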

How the results depend on the processing

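Among genes called both in the main fit and in an alternative, none changed sign. Signs of genes that lost their call were not counted over all genes. The order of higher and lower calls among expressed genes did change. It was 3479 higher and 4513 lower, against 4117 and 3834 with library totals and 896 and 870 with the test of at least a 1.5-fold change. That test left 2803 of the 9456 calls and 1766 of the 7992 calls among expressed genes. It also lost 113 of 365 named genes, Dnmt1, Tet1, Rrm2, Mcm6 and Pld6 among them, and moved 43 of the 63 gene lists. DESeq2 called 8034 genes, and leaving out one library at a time gave 8222 to 9600. The replicate block gave 9474 calls and kept 9355 of the 9456, although it is not known whether replicate numbers pair the libraries.

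The number of switched on genes depended on its limits. A DMSO limit of 0.1 or 0.5 CPM gave 34 or 300, a GSK-3484862 limit of 0.5 or 2 CPM gave 251 or 22, silence also in E14 gave 40, and leaving out one WT library gave 124 (GSK-3484862 replicate 2) to 152 (DMSO replicate 2). Switched off genes numbered 2 or 40, 44 or 0 under the same limits, and 9 to 14 with one library left out. The X share was 32.4% at 0.1 CPM and 9.67% at 0.5 CPM, an alternative chosen after seeing the data. From 10 to 100 CPM, calls of at least 2-fold higher made up 4.18% with tiers from the mean of the 4 WT libraries, and lower 2.03% with E14 tiers. At 100 CPM and over, higher made up 0.722% and lower 1.40% with the mean of the 4 WT libraries, and lower 1.16% with E14 tiers.

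With 2 libraries per group and unknown separation of cultures, small shifts of abundant genes rest on the spread between these libraries. Genes near 1 CPM had as few as 19 counts in a library.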
